A study of Arvicanthis niloticus with 28 samples.

Results

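A set of 10 genes of TGF-β and BMP signaling was measured in the retinal vasculature of 28 Nile rats (Arvicanthis niloticus), with 1 RNA-seq library per rat. They are the ligand gene Tgfb1, the receptor genes Tgfbr1, Tgfbr2, Acvrl1 and Bmpr2, the co-receptor genes Eng and Cd109, the transducer gene Smad1, and the target genes Id1 and Id3. The 10 genes were chosen by name, all 10 are among the 18970 genes of the deposited tables, and all 10 passed the filter on low counts in each of the 4 comparisons described here. The pre-dropout group held 4 rats, all male, with 17.1 to 17.9 acellular capillaries per square millimeter of retina, and the normal group held 24 rats, 8 males and 16 females, with 5.90 to 14.5. An acellular capillary is a tube of basement membrane that has lost its cells, and it was counted after trypsin digestion of the retina. All rats of both groups are labelled wild type and untreated. The Nile rat develops diabetes on an energy-rich diet, the colony was fed either a high-fiber or a high-caloric diet, and the labels give neither the diet nor the age of a rat. Random blood glucose was 57.4 to 443 mg/dL in the pre-dropout rats and 52 to 422 mg/dL in the normal rats, so that a pre-dropout rat is not always a rat with high glucose. Since all pre-dropout rats are male, sex and density group overlap in this design.

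TGF-β1 is released in a latent form and signals through the type II receptor encoded by Tgfbr2, which activates the type I receptor encoded by Tgfbr1. Endothelial cells carry a second arm, in which BMP9 and BMP10 bind ALK1, encoded by Acvrl1, together with BMPR2 and the co-receptor endoglin, encoded by Eng. ALK1 phosphorylates SMAD1 and its relatives, which switch on Id1 and Id3. Mutations of ENG and ACVRL1 cause hereditary hemorrhagic telangiectasia in humans, and mutations of BMPR2 cause pulmonary arterial hypertension. CD109 is a protein anchored to the cell surface that binds TGF-β1 and has been described, mainly in human and mouse skin cells, as a co-receptor that lowers TGF-β signaling.

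The libraries held between 153108 and 10029198 counts, and 2 of them held fewer than 1e+06. Endothelial markers such as Cldn5 and Cdh5 were present in every group, with summed CPM of 8176 to 14879 in the pre-dropout rats and 4838 to 16294 in the normal rats. CPM is the count per 1e+06 counts after TMM scaling between libraries. Pericyte markers summed to 2373 to 10261 CPM in the pre-dropout rats and 2015 to 11156 CPM in the normal rats. Markers of photoreceptors, which lie outside the vessels, summed to 273 to 872 CPM in the pre-dropout rats and 190 to 5281 CPM in the normal rats. Microglia and macrophage markers summed to no more than 214 CPM in any library. The tables also show a technical split. Counts divided by TPM give the effective length that was used for a gene, and the ratio of short to long genes fell into 2 separate ranges, 0.0521 to 0.0523 in 16 libraries (length set 1) and 0.0490 to 0.0493 in 12 libraries (length set 2). All 4 pre-dropout rats, 3 normal males and 9 normal females were in length set 1, and 5 normal males and 7 normal females were in length set 2. The sources used here do not name what differed between these sets.

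The 10 genes spanned a wide range of levels. In TPM, which is scaled to gene length, Id1 had the highest median over the 28 rats at 1740 TPM, followed by Id3 at 1139, Eng at 483, Bmpr2 at 334, Tgfbr2 at 224, Acvrl1 at 54.7, Tgfb1 at 51.7, Smad1 at 39.2, Cd109 at 25.9 and Tgfbr1 at 25.8 TPM. Among all genes of the tables, the median TPM of Id1 ranked 30 and that of Id3 ranked 57. Some steps of this order held in nearly every library and others did not. Id3 was above Eng, and Tgfbr2 above Acvrl1, in 28 of 28 rats. Id1 was above Id3 in 22, Eng above Bmpr2 in 23 and Bmpr2 above Tgfbr2 in 21 of the 28 rats. Among the 5 genes at the low end, neighbours in the order did not differ beyond their spread, since Acvrl1 was above Tgfb1 in 11 rats, Tgfb1 above Smad1 in 18, Smad1 above Cd109 in 18 and Cd109 above Tgfbr1 in 16 of the 28 rats.

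**Figure D1:**
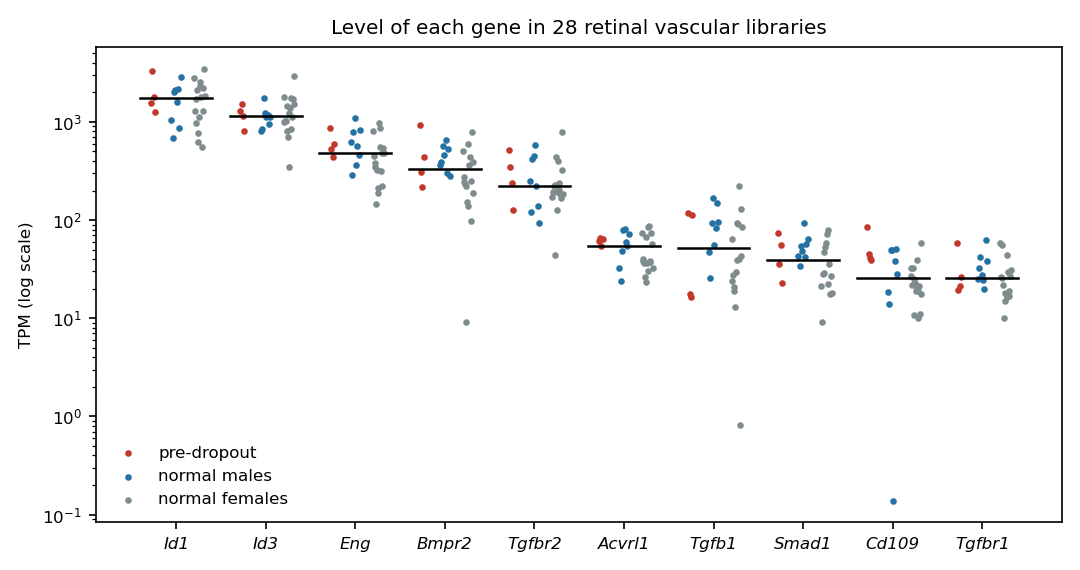
TPM of each gene in every library on a log scale, in the order of the median over 28 rats (black line), with pre-dropout rats at the left, normal males in the middle and normal females at the right of each gene. Median levels run from 1740 TPM for Id1 to 25.8 TPM for Tgfbr1, and the 2 values of 0 for Smad1 are not drawn.

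The place of Acvrl1 in this order rests on the length assigned to it. By counts alone, with no scaling to length, Acvrl1 had a median of 183 CPM, close to Tgfbr2 at 185 and Id3 at 177 CPM, and below Bmpr2 at 314, Eng at 331 and Id1 at 409.1 CPM. The effective length implied by the tables was 24.1 times that of Id3 for Acvrl1, 4.49 times for Eng and 6.32 times for Bmpr2. Within a library, the TPM of Eng was 9.48 times that of Acvrl1 at the median, with a range of 4.50 to 19.2. The TPM of the type II receptor gene Tgfbr2 was 9.41 times that of the type I receptor gene Tgfbr1 at the median, with a range of 2.004 to 44.5. These ratios compare levels per length and move with the assigned lengths.

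The genes also differed in how much they varied between rats. The coefficient of variation of CPM over 28 rats was 0.406 for Id3, 0.413 for Acvrl1, 0.492 for Id1, 0.498 for Tgfbr1, 0.516 for Eng, 0.566 for Bmpr2, 0.569 for Cd109, 0.581 for Smad1, 0.620 for Tgfbr2 and 0.762 for Tgfb1. A few libraries held almost no counts of a single gene. Cd109 had 2 counts in the normal male T425M, which in CPM is 0.607% of its median over the 28 rats. Tgfb1 had 4 counts in the normal female T419F, 1.23% of its median CPM, and Bmpr2 had 66 counts in the normal female T398F, 2.53% of its median CPM. Smad1 had 0 counts in the normal females T399F and T430F, although its median over the 28 rats was 52.1 CPM. There, 3 counts, the floor that a count of 0 allows, would be 0.811 and 0.337 CPM. All 5 rats are normal rats. Among the 4052 genes with a median of at least 40 CPM, 2.77% of all values lay under 10% of the gene's median, as did 1.79% of the values of these 10 genes.

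The first comparison asked which genes differ in vessels whose acellular capillary density lies just above the normal range. Among the 10 genes, Cd109 stood furthest from 0, with a log2 change of 0.96 (SE 0.54) in pre-dropout over normal rats, but it did not pass the test, with an edgeR unadjusted p of 0.0827 and an adjusted p of 0.9999. The call asked for an adjusted p under 0.05 together with a difference of more than 2-fold, and it was met by none of the 10 genes and by 0% of the 13800 genes tested. DESeq2 called 5 genes, none of the 10. None of the 10 had an unadjusted p under 0.05, where 2.86% of all genes did, 27 with a higher and 367 with a lower level in the pre-dropout rats. Of the 10 log2 changes, 8 were above 0, compared with 41.1% of all genes, and their median was 0.22, compared with -0.13 over all genes. That count was not the same without the females of the normal group. With males only, or with sex as a covariate, 4 of 10 changes were above 0. The median of the 10 with males only was -0.08, compared with -0.05 over all genes. Leaving out the pre-dropout rat T353M put 7 of 10 above 0, at a median of 0.06, with Bmpr2 at 6.7e-05. Leaving out T391M put all 10 above 0, at a median of 0.31, with Bmpr2 at 0.62. Within length set 1, all 10 were above 0, in a model with no term for sex, where the normal rats were 3 males and 9 females. All endothelial markers tested, 12 of 12, were above 0 too, at a median of 0.21, while 1 of 9 pericyte markers, 0 of 14 photoreceptor markers and 2 of 14 markers of inner retinal neurons were. Erythrocyte markers were above 0 for 3 of 3 tested, at a median of 0.75. With the photoreceptor marker level as a covariate, 7 of the 10 genes were above 0 and Cd109 had a log2 change of 0.87 (SE 0.53). The part of the other marker lists was not tested. In bulk RNA from whole vessels, a higher share of endothelial cells cannot be told apart from more RNA of a gene per cell.

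**Figure D2:**
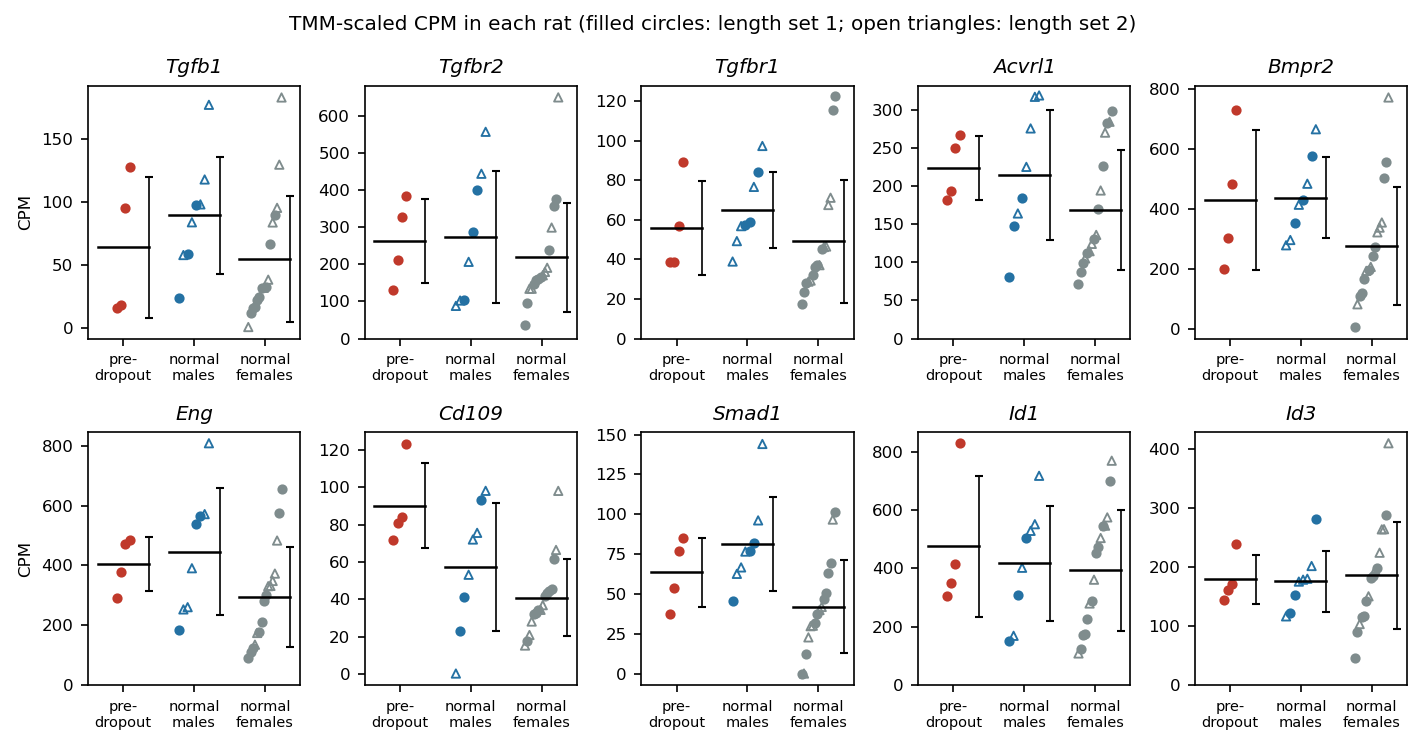
TMM-scaled CPM of each gene in every rat, for pre-dropout rats, normal males and normal females from left to right, with the group mean (line) and SD (bar). Filled circles are libraries of length set 1 and open triangles those of length set 2. The 4 pre-dropout values of Cd109 lie between 71.9 and 123 CPM, above the medians of both normal groups and within reach of their highest values, whereas for Tgfb1 they split into a low and a high pair.

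Cd109 (ENSMUSG00000046186) had 123, 71.9, 81.1 and 84.1 CPM in the pre-dropout rats T353M, T391M, T407M and T389M. In the 24 normal rats it ranged from 0.266 to 98.2 CPM with a median of 41.7. The means were 90.1 ± 22.7 CPM in pre-dropout rats (SD, n = 4) and 46.3 ± 26.4 CPM in normal rats (SD, n = 24). All 4 pre-dropout rats were above the normal median, and 1 of them, T353M, was above every normal rat, so the groups overlapped. Set against the 8 normal males, which had a median of 62.7 CPM and a highest value of 98.2, all 4 were again above the median and the log2 change was 0.65 (SE 0.72). These males include T425M, with 2 counts of Cd109 (0.266 CPM), and its part in this change was not tested. Within length set 1 the 12 normal rats, 3 males and 9 females, ranged from 17.6 to 93.3 CPM, with the highest value in the male T411M. The log2 change there was 1.10 (SE 0.36), with an edgeR unadjusted p of 0.0055 and an adjusted p of 0.9999. That model held no term for sex, so sex and density group were not separated in it. The subset was chosen after seeing the data. As a share of the summed endothelial markers, Cd109 made up 0.820% ± 0.195 in pre-dropout rats (SD, n = 4) and 0.492% ± 0.215 in normal rats (SD, n = 24). The normal rats ranged from 0.0019% in T425M to 0.821%, and the normal males had a median of 0.612%. T353M at 0.951% and T407M at 0.992% were above every normal rat. T391M at 0.771% was within the normal range, and T389M at 0.566% was below the normal male median. Cd109 is among the genes that the study itself singled out from these same rats, so its direction is not independent evidence.

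Tgfb1 (ENSMUSG00000002603), the ligand gene, had 95.2, 15.8, 128 and 18.3 CPM in T353M, T391M, T407M and T389M. The normal rats ranged from 0.716 to 183 CPM, with a median of 58.2. The pre-dropout rats thus formed a low pair and a high pair, and the log2 change was -0.03 (SE 0.67). The low pair, T391M and T389M, are the pre-dropout rats with 278 and 443 mg/dL glucose. Of the normal rats above 200 mg/dL, T370M had 23.7 CPM, whereas T392F with 66.8 and T446M with 84.0 CPM were above the normal median. Between the length sets among normal rats, Tgfb1 had medians of 28.3 CPM in set 1 and 89.7 CPM in set 2, which did not pass the test, with a log2 change of -1.09 (SE 0.48) with sex as a covariate and an edgeR adjusted p of 0.9997. Within length set 1 the log2 change of pre-dropout over normal rats was 0.66 (SE 0.58), with no term for sex.

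The TGF-β receptor genes did not separate the groups. Tgfbr2 (ENSMUSG00000032440) had 385, 211, 132 and 327 CPM in T353M, T391M, T407M and T389M, and 35.9 to 650 CPM with a median of 175 in normal rats. Its log2 change was 0.15 (SE 0.44). Tgfbr1 (ENSMUSG00000007613) had 89.5, 39.0, 57.2 and 38.6 CPM in the same order of pre-dropout rats, and 17.6 to 123 CPM with a median of 46.4 in normal rats. For Tgfbr1 the log2 change was 0.05 (SE 0.46). With males only the log2 changes were -0.10 for Tgfbr2 and -0.21 for Tgfbr1.

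In the BMP arm, Acvrl1 (ENSMUSG00000000530) was the member whose pre-dropout values lay closest together. It had 182, 193, 267 and 250 CPM in T353M, T391M, T407M and T389M, all above the normal median of 167 CPM, with normal rats between 71.2 and 318. Its log2 change was 0.28 (SE 0.34). Eng (ENSMUSG00000026814) had 485, 291, 471 and 377 CPM, which gave 406 ± 90.7 CPM in pre-dropout rats (SD, n = 4) and 345 ± 194 CPM in normal rats (SD, n = 24). Its log2 change was 0.24 (SE 0.40) against all normal rats and -0.16 with males only, since the normal males averaged 446.7 ± 212 CPM (SD, n = 8). Bmpr2 (ENSMUSG00000067336) had 733, 201, 485 and 305 CPM, and normal rats ranged from 7.95 to 773 CPM with a median of 311. The log2 change of Bmpr2 was 0.37 (SE 0.48) against all normal rats and -0.05 with males only.

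Downstream, Smad1 (ENSMUSG00000031681) had 85.2, 77.2, 37.7 and 53.8 CPM in T353M, T391M, T407M and T389M, and 0 to 144 CPM with a median of 48.5 in normal rats. Its log2 change was 0.21 (SE 0.72) against all normal rats and -0.38 with males only. Id1 (ENSMUSG00000042745) had 304, 416, 351 and 830 CPM, and normal rats ranged from 108 to 770 CPM with a median of 428. The 830 CPM of T389M was the highest Id1 level of the 28 rats in CPM, and this rat also had the highest glucose. In TPM the highest level was 3492 in the normal female T430F, at 75.6 mg/dL, against 3319 in T389M. The log2 change of Id1 was 0.24 (SE 0.39), and it was -0.17 without T389M and -0.12 with blood glucose as a covariate. Id3 (ENSMUSG00000007872) had 162, 171, 144 and 240 CPM, against 45.1 to 410 CPM with a median of 179 in normal rats. This left Id3 with a log2 change of -0.03 (SE 0.35).

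**Figure D3:**
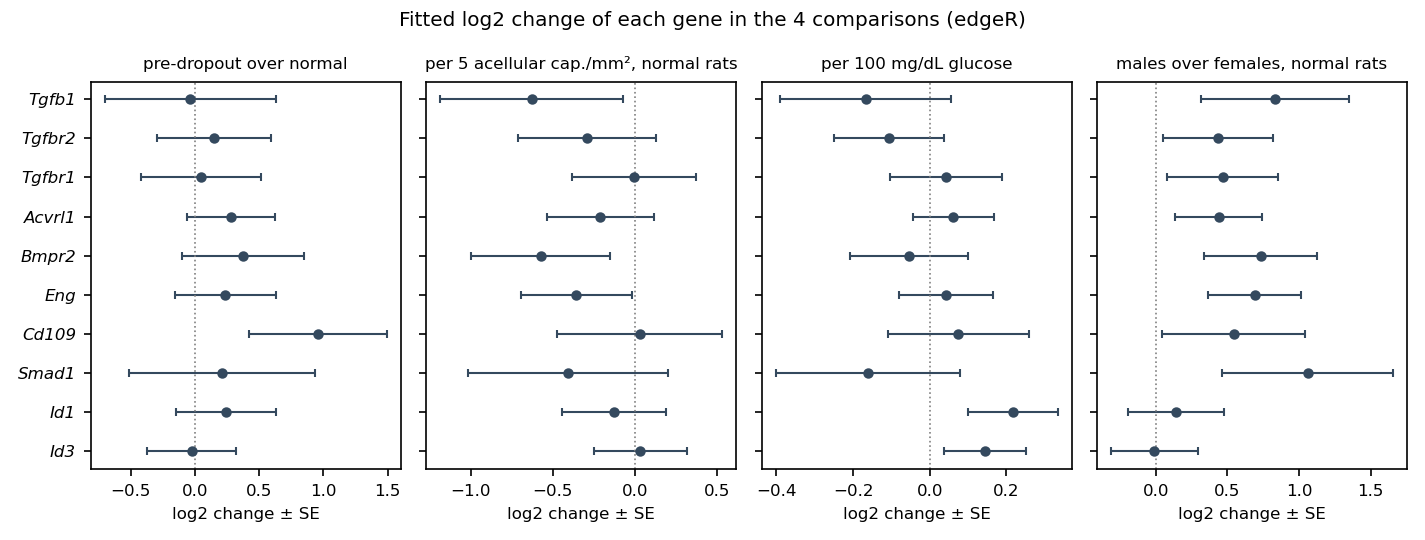
Log2 change of each gene with its standard error in the 4 comparisons, fitted with edgeR, where values right of the dotted line are above 0 and each panel has its own scale. Cd109 reaches 0.96 in pre-dropout over normal rats, and 9 of 10 genes lie above 0 in males over females.

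The second comparison asked whether the genes followed acellular capillary density inside the normal range. Their levels mostly lay lower at higher density, but no slope passed the test. Among the 24 normal rats, with sex as a covariate, 0% of 12162 genes had a slope called at an adjusted p under 0.05. None of the 10 had an unadjusted p under 0.05, where 0.674% of all genes did, 35 above and 47 below 0. Of the 10 slopes, 2 were above 0, compared with 56% of all genes, and their median was -0.25 per 5 acellular capillaries per square millimeter, compared with 0.07 over all genes. Tgfb1 had a slope of -0.63 (SE 0.56), Bmpr2 of -0.58 (SE 0.42), Smad1 of -0.41 (SE 0.61) and Eng of -0.36 (SE 0.34), while Cd109 had 0.03 (SE 0.50). Slopes above 0 numbered 1 of 10 in length set 1 and 4 of 10 in length set 2. In T398F, the normal rat with the highest density, 14.5, the 66 counts of Bmpr2 were 7.95 CPM, and Eng and Tgfbr2 were at the lowest levels of the 28 rats, with 90.3 and 35.9 CPM. Without the 5 rats that hold a gene near 0, T398F among them, the slopes of Bmpr2 and Tgfb1 were -0.10 and -0.22. These 5 rats were picked for the values of these genes. Of the photoreceptor markers, 13 of 14 had slopes above 0, with a median of 1.47, and 2 of 12 endothelial and 0 of 9 pericyte markers did. Their part in the slopes was not tested.

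The third comparison asked whether the genes followed random blood glucose over all 28 rats, with sex as a covariate. Density group was not in this model. Of the slopes above 0, those of Id1 and Id3 were the largest of the 10 genes, with 0.22 (SE 0.12) and 0.14 (SE 0.11) per 100 mg/dL, and of those below 0, Tgfb1 had -0.17 (SE 0.22) and Smad1 -0.16 (SE 0.24). None of these passed the test. Of 11267 genes, 0% had a slope called at an adjusted p under 0.05, and 1.63% had an unadjusted p under 0.05, 97 above and 87 below 0, among them none of the 10. DESeq2 called 8 slopes, none of the 10. Of the 10 slopes, 6 were above 0, compared with 51.3% of all genes, and their median was 0.04, compared with 0.01 over all genes. Without T392F, the only female above 200 mg/dL, 3 of 10 slopes were above 0 and their median was -0.10. In length set 1 and length set 2, 7 and 3 of 10 slopes were above 0. The edgeR unadjusted p was 0.073 for Id1 and 0.186 for Id3, each with an adjusted p of 1. Cd109 had a slope of 0.07 (SE 0.18).

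Only 5 rats had a glucose above 200 mg/dL, so the slopes rest on few animals. In order of glucose, Id1 had 152 CPM in the normal male T370M at 226 mg/dL, 416 CPM in the pre-dropout male T391M at 278, 699 CPM in the normal female T392F at 362, 529 CPM in the normal male T446M at 422 and 830 CPM in the pre-dropout male T389M at 443 mg/dL. The 23 rats up to 200 mg/dL ranged from 108 to 770 CPM with a median of 361. Thus 4 of the 5 rats above 200 mg/dL were above the median of the others, within their range. T370M, the exception, also had the most photoreceptor transcripts of all libraries, with 5281 CPM summed over the markers. Without it the slope of Id1 was 0.24 (SE 0.12), and without T389M it was 0.15 (SE 0.15). In length set 1, which holds 4 of these 5 rats, the slope was 0.34 (SE 0.13), with an edgeR unadjusted p of 0.0185 and an adjusted p of 1, and in length set 2 it was 0.07 (SE 0.21). The difference between the sets was not tested. Among markers of inner retinal neurons 13 of 14 slopes were above 0, with a median of 0.25, among photoreceptor markers 10 of 12, with a median of 0.25, among endothelial markers 9 of 12, with a median of 0.04, and among pericyte markers 0 of 9, with a median of -0.185. Their part in the slope of Id1 was not tested.

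**Figure D4:**
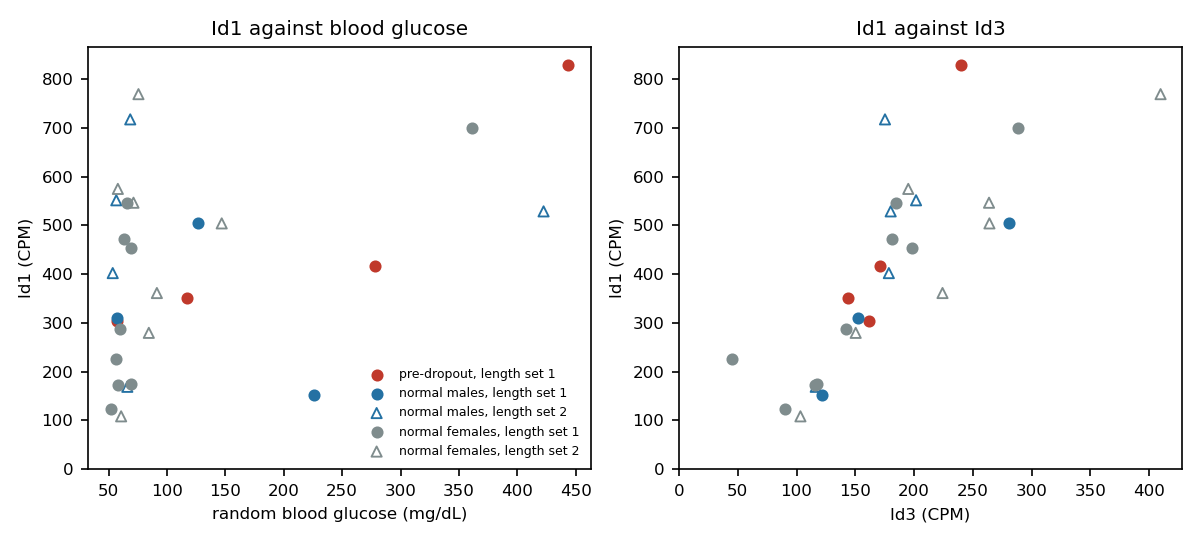
CPM of Id1 against random blood glucose in mg/dL (left) and against the CPM of Id3 (right), 1 point per rat, by density group, sex and length set. The 5 rats above 200 mg/dL lie between 152 and 830 CPM of Id1, within or just above the range of the other rats, whereas Id1 and Id3 follow each other over all 28 rats.

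The fourth comparison set males against females among the normal rats. Among the 10 log2 changes, 9 were above 0, compared with 47.7% of all genes, and their median was 0.51, compared with -0.04 over all genes. In length set 1 and length set 2, 8 and 9 of 10 were above 0. None of the 10 was called, where 0.0247% of 12162 genes were. One of the 10, Eng, had an unadjusted p under 0.05, where 4.38% of all genes did. Eng ranged from 185 to 809 CPM with a median of 464 in the 8 males, and from 90.3 to 655 CPM with a median of 292 in the 16 females, a log2 change of 0.69 (SE 0.33) with an edgeR unadjusted p of 0.0415 and an adjusted p of 0.995. Smad1 ranged from 45.6 to 144 CPM in males and from 0 to 101 CPM in females. All 8 males were above the female median of 38.7 CPM, and the log2 change was 1.06 (SE 0.60). Both libraries without a count of Smad1 were female, and without the 5 rats that hold a gene near 0 the log2 change was 0.56 (SE 0.37). Bmpr2 had a log2 change of 0.73 (SE 0.39) and Tgfb1 of 0.83 (SE 0.51), whereas Id1 had 0.14 (SE 0.34) and Id3 had -0.01 (SE 0.30). For Cd109 it was 0.54 (SE 0.50). Without the same 5 rats, among them the male T425M with 2 counts of Cd109, it was 0.82, with an edgeR unadjusted p of 0.040. Cd109 was not called there either, and these rats were picked for the values of these genes. With limma on all normal rats Cd109 was at -0.079 and -0.34 with pseudocounts of 1 and 0.1. Endothelial and pericyte markers lay on the same side, with 12 of 12 and 9 of 9 above 0 in males and medians of 0.37 and 0.55. Erythrocyte markers were above 0 for 3 of 3, with a median of 0.75, and 11 of 14 markers of inner retinal neurons were below 0. Their part in the result was not tested.

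The levels of many of these genes moved together from rat to rat. Over 28 rats, on log2(CPM + 1), 20 of the 45 pairs of genes passed at a Benjamini-Hochberg adjusted permutation p under 0.05 for Spearman's rho, all with a positive sign, and 16 of these also passed for Pearson's r. The rats share scaling and tissue makeup across genes, so these values describe the libraries. The share of passing pairs among other genes of the vessels was not computed. The count therefore does not set these genes apart from other vessel genes. The median rho of the 45 pairs was 0.396. Each gene's median rho with all other genes compared lay between -0.0525 (Acvrl1) and 0.00328 (Tgfbr2), but single genes outside the set reached 0.90 (Abcg2 with Tgfbr2). Id1 and Id3 formed the closest pair, with a rho of 0.86 (adjusted permutation p = 0.00045) and an r of 0.78 (adjusted permutation p = 0.00015). The smallest permutation p possible here is 1e-05 before adjustment. The r of Id1 with Id3 was 0.82 in males and 0.80 in females, 0.77 in length set 1 and 0.80 in length set 2, and 0.88 without the 2 rats farthest from the median of Id3. Among all 7836 other genes detected in at least 24 libraries, Id3 was the gene most like Id1, and Id1 was the gene most like Id3.

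Eng, Bmpr2 and Acvrl1 of the BMP arm also followed each other, and Tgfb1 followed Eng and Bmpr2 about as closely. The genes were not clustered. Eng and Bmpr2 had a rho of 0.71 and an r of 0.75 (adjusted permutation p = 0.00075 and 0.00015), Eng and Acvrl1 a rho of 0.69 and an r of 0.75 (adjusted permutation p = 0.00075 and 0.00015), and Acvrl1 and Bmpr2 a rho of 0.66 and an r of 0.61 (adjusted permutation p = 0.00186 and 0.00105). Within males alone the r of Eng with Bmpr2 was 0.23 and that of Acvrl1 with Bmpr2 was 0.12, compared with 0.81 and 0.69 within females, a difference that was not tested. Eng and Id1 had a rho of 0.66 and an r of 0.62 (adjusted permutation p = 0.0018 and 0.00373). Tgfb1 followed Bmpr2 with a rho of 0.69 and an r of 0.60 (adjusted permutation p = 0.0009 and 0.0173), and Eng with a rho of 0.68 and an r of 0.69 (adjusted permutation p = 0.00117 and 0.000338). Without the 2 rats farthest from the median of the second gene, r was 0.70 for Eng with Bmpr2, 0.70 for Eng with Acvrl1, 0.53 for Eng with Id1 and 0.64 for Tgfb1 with Bmpr2. Within length set 1 and length set 2, r was 0.83 and 0.49 for Eng with Bmpr2, 0.81 and 0.61 for Eng with Acvrl1, 0.58 and 0.69 for Acvrl1 with Bmpr2, 0.60 and 0.65 for Eng with Id1, 0.61 and 0.76 for Tgfb1 with Bmpr2, and 0.72 and 0.77 for Tgfb1 with Eng.

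The receptor pair of TGF-β1 itself did not follow each other, with a rho of 0.09 and an r of 0.02 for Tgfbr1 with Tgfbr2 (adjusted permutation p = 0.687 and 0.925). Smad1 passed with none of the other 9 genes, also not with Id1, where the rho was 0.03 and the r 0.03 (adjusted permutation p = 0.899 and 0.925). Cd109 passed with Eng alone, with a rho of 0.48 (adjusted permutation p = 0.0265) and an r of 0.35 (adjusted permutation p = 0.141). With Tgfb1 and Tgfbr2, Cd109 had a rho of 0.20 and 0.31 (adjusted permutation p = 0.375 and 0.145) and an r of 0.09 and 0.04 (adjusted permutation p = 0.704 and 0.894). The r of Cd109 with Tgfbr2 was 0.65 in length set 1 and -0.27 in length set 2, where the 2 counts of Cd109 in T425M lie.

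**Figure D5:**
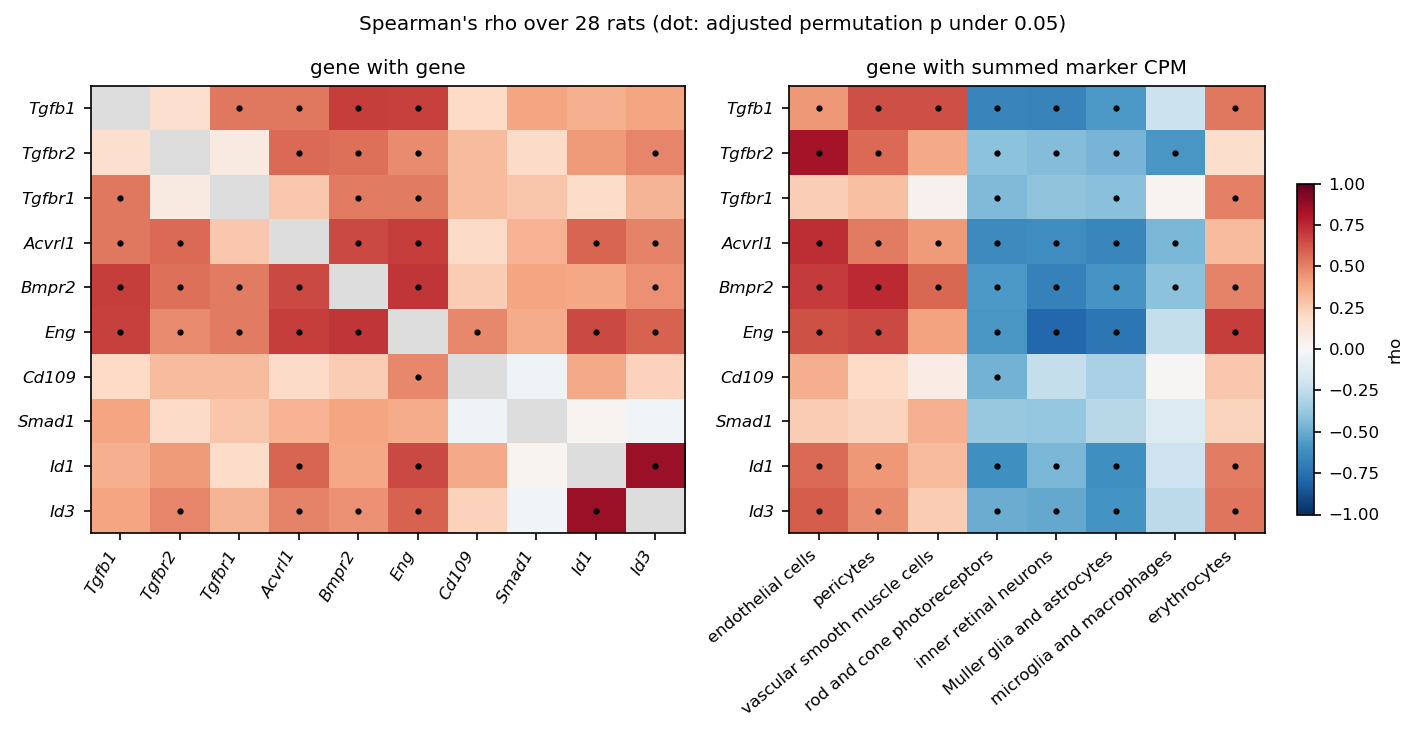
Spearman's rho over 28 rats for each pair of genes (left) and for each gene with the summed CPM of 8 marker lists (right), in which red is positive, blue is negative, and a dot marks an adjusted permutation p under 0.05. Dots mark 20 of 45 pairs of genes and 50 of 80 pairs of a gene with a marker list, and the rows of Smad1 and Cd109 hold the fewest.

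The genes also followed the cell makeup of the libraries. Of 80 pairs of a gene with a summed marker list, 50 passed for Spearman's rho, 23 with a positive and 27 with a negative sign, and 40 passed for both measures. The share of other genes that pass with these lists was not computed. These counts therefore do not set the 10 genes apart from other vessel genes. Positive correlations passed for 7 of the 10 genes with the endothelial markers for 7 with the pericyte markers and for 6 with the erythrocyte markers, and negative ones for 9 with photoreceptor markers and for 8 with markers of Müller glia and astrocytes. By rho, Tgfbr2 followed the endothelial sum most closely, with a rho of 0.83 and an r of 0.77 (adjusted permutation p = 0.000267 and 0.0002), an r of 0.84 in males and 0.74 in females, and 0.78 without the 2 farthest rats. Acvrl1 had a rho of 0.74 and an r of 0.78 with the endothelial sum (adjusted permutation p = 0.000533 and 0.0002). Bmpr2 had a rho of 0.75 and an r of 0.57 with the pericyte sum (adjusted permutation p = 0.000267 and 0.00358), and Tgfb1 a rho of 0.64 and an r of 0.66 with it (adjusted permutation p = 0.00189 and 0.000914). Eng had a rho of -0.78 and an r of -0.76 with the markers of inner retinal neurons (adjusted permutation p = 0.000267 and 0.0002). Within length set 1 and length set 2, r was 0.85 and 0.66 for Tgfbr2 and 0.83 and 0.68 for Acvrl1 with the endothelial sum, 0.52 and 0.73 for Bmpr2 and 0.78 and 0.60 for Tgfb1 with the pericyte sum, and -0.76 and -0.75 for Eng with the inner neurons. Cd109 passed neither with the endothelial sum, with a rho of 0.37 and an r of 0.13 (adjusted permutation p = 0.0814 and 0.595), nor with the pericyte sum, with a rho of 0.20 and an r of -0.02 (adjusted permutation p = 0.334 and 0.948). With the photoreceptor sum Cd109 passed for rho, at -0.47 (adjusted permutation p = 0.0246), and not for r, at -0.24 (adjusted permutation p = 0.292), with an r of -0.66 in length set 1 and -0.19 in length set 2. Its r with the endothelial sum was 0.67 in length set 1 and -0.12 in length set 2. Smad1 passed with none of the 8 lists. No gene passed with the library total, where rho ranged from -0.51 to 0.09 over the 10 genes.

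Genes most like each of the 10 were sought among the 7836 other genes detected in at least 24 libraries. Tgfbr2 was nearest to Abcg2, a transporter of the blood-retina barrier, with a rho of 0.90, and then to Ndrg1 at 0.86 and Sgms1 at 0.85. Bmpr2 was nearest to Adam10, a sheddase, at 0.85, and then to Flna and Epas1, a hypoxia-inducible factor, both at 0.84. Acvrl1 was nearest to Heca at 0.85, followed by Rhoa at 0.83 and Vim at 0.82. Eng was nearest to Eef1a1 at 0.88, Ly6e at 0.87 and Ccdc152 at 0.87. Tgfb1 was nearest to Igfbp7, a secreted protein of the vessel wall, at 0.79. The nearest genes were less alike for Cd109, with Caskin2 at 0.77, for Smad1, with Sh3bp5 at 0.71, and for Tgfbr1, with Esd and Stt3b at 0.66. These are the highest of 7836 values each and carry no test.

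Other genes of the pathway were taken from 5 lists of 76 genes in all. None was called in any of the 4 comparisons. In pre-dropout over normal rats, log2 changes were above 0 for 4 of 10 ligand genes tested, 5 of 11 receptor genes and 4 of 7 Smad genes. They were above 0 for 10 of 26 activator and antagonist genes and 10 of 15 target genes, compared with 41.1% of all genes. In this order the medians were -0.69, -0.03, 0.19, -0.21 and 0.17, compared with -0.13 over all genes. None had an unadjusted p under 0.05, where 2.86% of all genes did. The most abundant were Acta2, the actin of smooth muscle, with a mean of 404.1 TPM over 28 rats, the matrix gene Fn1 with 351, Ctgf with 301, Fstl1 with 193 and Pmepa1, a feedback inhibitor of TGF-β signaling, with 189 TPM. Their log2 changes in pre-dropout over normal rats were -0.62 (SE 0.49) for Acta2, 0.21 (SE 0.33) for Fn1, 0.06 (SE 0.42) for Ctgf, -0.02 (SE 0.52) for Fstl1 and -0.43 (SE 0.38) for Pmepa1.

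A few of these pathway genes had an unadjusted p under 0.05 in another comparison, with edgeR adjusted p of 1 for the slopes and 0.995 between the sexes. Along density, the ligand gene Tgfb2 had a slope of 0.82 (SE 0.38) per 5 acellular capillaries, and Bmp6, whose median was 1.47 CPM, had -3.39 (SE 1.62). Tgfb2 was more abundant than Tgfb1 by median TPM, with 58.0 against 51.7. Along glucose, the receptor gene Acvr2a had a slope of -0.35 (SE 0.15), Pmepa1 of -0.26 (SE 0.11) and the collagen gene Col1a2 of -0.29 (SE 0.12) per 100 mg/dL. In males over females, Acvr1, another type I receptor gene, had a log2 change of 0.84 (SE 0.40), Dcn, which encodes a proteoglycan that binds TGF-β, of 1.99 (SE 0.88), and Ski, a repressor of Smad activity, of 0.78 (SE 0.36). Tested along density were 9 ligand, 9 receptor, 7 Smad, 25 activator and antagonist and 13 target genes, and between the sexes the same numbers. Along glucose they were 8 ligand, 9 receptor, 7 Smad, 23 activator and antagonist and 13 target genes. Over all genes, 0.674% of density slopes, 1.63% of glucose slopes and 4.38% of changes between the sexes had an unadjusted p under 0.05.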

How the data were processed

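RNA of isolated retinal vessels of 28 Nile rats was sequenced by LM-seq, 1 library per rat. The authors deposited 1 table of expected counts, which are estimated per gene and not scaled between libraries, and 1 table of TPM, both on mouse symbols and mouse Ensembl identifiers. They were taken as values of the study's comparative RNA-seq pipeline (CRSP), which the tables do not state, and tool versions are not given in the sources used here. Reads of related genes, such as Smad1 and its paralogs, can be shared in such mapping. Counts that the study obtained on the genome of the Nile rat were not used here. No reference sequences were used and no coordinates are given.

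Expected counts were rounded and tested in R 4.3.3 with the quasi-likelihood test of edgeR 4.0.16, after TMM scaling and filterByExpr with a minimum count of 10, and p-values were adjusted by Benjamini-Hochberg over all genes tested. A call needed an adjusted p under 0.05 and, between groups, a difference of more than 2-fold. Log2 changes and slopes are model estimates with standard errors. The density slope used normal rats and the glucose slope all 28, both with sex as a covariate. Correlations used 100000 permutations (Python 3.11.15, NumPy 2.4.6, SciPy 1.17.1, pandas 2.3.3), two-sided, in families of 45, 80 and 10 pairs. Effective lengths were compared over 1377 genes with at least 20 counts in every library. Glucose is taken to be in mg/dL from the study's methods. A count of 0 allows up to 3 counts, by counting error only.

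The text names all 10 genes, other pathway genes with an unadjusted p under 0.05 or among the 5 with the highest mean TPM, and the genes most alike. The genes, lists and tests were chosen with earlier results of these data known. Hfe2, Cyr61 and Ctgf are the tables' symbols for Hjv, Ccn1 and Ccn2. The script was tested on simulated data. Rats within a group are separate animals. Alternatives were DESeq2 1.42.0 and its size factors, limma 3.58.1 on log2 of TPM plus 1 or 0.1, no count filter, other covariates, subsets of rats and single rats left out. The alternatives on length sets, on rats with a gene near 0 and on each normal rat left out (for glucose, on every rat) were chosen after seeing the data.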

Additional observations from a re-analysis of the deposited data

Results flagged for a closer look

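Within 30 groups of 4, 5 or 8 rats (each of the 10 genes in the pre-dropout rats, in the rats above 200 mg/dL and in the normal males), 1 value stood apart from the others by Dixon's test at its 95% limit, about 1 in 20 being flagged by chance. Tgfbr1 had 115.8 CPM in T392F, compared with 38.6 to 57.4 CPM in the other 4 rats above 200 mg/dL. T392F is the only female of these 5 rats, and without this rat the glucose slope of Tgfbr1 was -0.20 per 100 mg/dL.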

How the results depend on the processing

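None of the 10 genes was called under any alternative run. Apart from single rats left out, the log2 value kept its sign in 103 of 130 results of genes and alternatives for pre-dropout against normal rats, 108 of 120 for density, 119 of 130 for glucose and 91 of 100 for sex. The cause of the changes was not tested. Over all genes, DESeq2 called 5 for pre-dropout against normal rats, 8 for glucose and 37 for sex, and limma called 6 and 5 for sex with pseudocounts of 1 and 0.1. With no count filter the calls were 72 for pre-dropout, 45 for density and 152 for glucose. DESeq2 size factors moved the median of all genes in males over females to -0.18, from -0.04 with TMM.

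For pre-dropout over normal rats, sex as a covariate left 4 of 10 genes above 0, with -0.21 for Tgfbr1, -0.057 for Tgfbr2, -0.14 for Eng, -0.026 for Bmpr2, -0.36 for Smad1 and 0.027 for Id3. Males only also left 4, with -0.21 for Tgfbr1, -0.10 for Tgfbr2, -0.16 for Eng, -0.052 for Bmpr2, -0.38 for Smad1 and 0.021 for Id3. Id1 was at -0.12 with glucose as a covariate. With photoreceptor markers as a covariate Tgfb1 was at 0.056, Tgfbr1 at -0.024 and Tgfbr2 at -0.00361. Tgfb1 was at 0.65 with the length set as a covariate, 0.66 in set 1 and 0.096 without the 2 shallow libraries. Id3 was at 0.17 with the length set as a covariate, 0.18 in set 1, 0.0042 with no filter, 0.029 with limma at either pseudocount and 0.078 without the 5 rats that hold a gene near 0. Tgfbr1 was at -0.039 without those 5 rats and at -0.00206 with DESeq2 size factors.

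For density, Tgfbr1 was at 0.032 with DESeq2 size factors, 0.029 with DESeq2, 0.11 with limma at either pseudocount (0.110 and 0.114), 0.061 with no covariate, 0.030 in length set 2 and 0.15 without the 5 rats. Id1 was at 0.0051 over all 28 rats. Cd109 was at -0.46 in set 1 and -0.14 without the 5 rats, Tgfbr2 at 0.52 in set 2 and Id3 at -0.23 without the 5 rats. Slopes above 0 numbered 1 in set 1, 4 in set 2 and 1 without the 5 rats. For glucose, Tgfbr1 was at -0.033 and -0.034 with limma, -0.15 in set 2 and -0.0013 without the 5 rats. Normal rats only gave 0.016 for Tgfb1 and 0.043 for Bmpr2, and Bmpr2 was at 0.051 in set 1. Eng was at -0.0601 for rats above 200 mg/dL against the others, -0.038 in set 2 and -0.0066 without the 5 rats. Acvrl1 was at -0.070 in set 2, where 3 slopes were above 0. For males over females, limma gave -0.014 for Id1 at either pseudocount, and -0.079 and -0.34 for Cd109 with pseudocounts of 1 and 0.1. Id3 was at 0.027 without the shallow libraries, 0.31 in set 1 and 0.054 without the 5 rats. In set 1, Acvrl1 was at -0.24 and Id1 at -0.11.

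With single rats left out, pre-dropout values ranged from -0.17 to 0.45 for Id1, -0.20 to 0.11 for Id3, -0.60 to 0.28 for Tgfb1, -0.24 to 0.22 for Tgfbr1 and -0.072 to 0.39 for Tgfbr2. Glucose slopes ranged from -0.0228 to 0.087 for Acvrl1, -0.11 to 0.081 for Eng and -0.20 to 0.12 for Tgfbr1, with a median of the 10 from -0.10 to 0.071 and 3 to 6 above 0, the lowest of each without T392F. Cd109 stayed between 0.79 and 1.07 when single pre-dropout rats were left out. Depth limits the 2 shallow libraries most, in which 3 counts are 15.3 CPM (T410F) and 3.07 CPM (T448M). No paired analysis was possible because each library came from a different rat.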
